A study of Homo sapiens with 18 samples.

Results

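The E2F transcription factors E2F1 to E2F8 and their DP partners TFDP1 and TFDP2 were followed across 18 poly-A RNA-seq libraries of melanoma cells. Of these 10 listed genes, taken by symbol, 9 had a row in the count table of 20705 genes, and E2F8 was not analysed here. The libraries came from CHL1, a melanoma cell line with wild-type BRAF and NRAS and mutant p53, and from A375, a melanoma cell line with mutant BRAF and wild-type p53. They formed 9 groups of 2 replicates. CHL1 cells, grown in DMEM, received DMSO for 72 hours (control), the CDK4/6 inhibitor palbociclib (CDK4/6i) at 1 µM for 72 hours or 6 days, or the PRMT5 inhibitor GSK3326595 (PRMT5i) at 500 nM for 72 hours. A375 cells, grown in RPMI-1640, had the same 4 groups and a second DMSO control of 6 days, with which the A375 cells of 6 days were compared. The 72-hour control served for each CHL1 treatment, that of 6 days included, and both A375 treatments of 72 hours shared theirs. Drug and time therefore cannot be told apart in CHL1 at 6 days. Each line is a single established line, so line and individual origin cannot be told apart.

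E2F proteins bind DNA mostly as pairs with a DP partner and switch on genes for DNA replication as cells pass from G1 into S phase. In resting cells the retinoblastoma protein RB and its relatives p107 and p130 hold E2Fs in check, and cyclin D with CDK4 or CDK6 releases them by phosphorylating these pocket proteins, the step that palbociclib blocks. E2F1, E2F2 and E2F3 are known as activators, E2F4 and E2F5 as repressors that work with p107 and p130, E2F6 as a repressor that works through Polycomb-type complexes without pocket proteins, and E2F7 as an atypical repressor that binds DNA without a DP partner. Melanomas often carry lesions of the p16, cyclin D, CDK4 and RB pathway, and PRMT5 is known to methylate E2F1 protein on arginine.

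Library totals ran from 16213475 to 37424081 counts, and the lowest count of any of the 9 genes in any library was 87, so depth did not limit their detection. Levels are given as counts scaled to the TMM-adjusted library size (CPM, from edgeR). Relative to the libraries of its own line, the log2 level of GC-rich minus GC-poor genes stood at -2.79 and -2.15 under PRMT5i in CHL1, at -2.46 and -1.22 in the 6-day controls of A375, and at -0.40 to 0.64 in the remaining 14 libraries. Transcripts of E2F1 (61.6% GC), E2F4 (59.3%) and E2F2 (57.4%) are GC-rich, and those of the other 6 genes hold 38.3% to 46.8% GC, so values after a GC correction stand beside the uncorrected ones below. The lineage regulator MITF was at 66.2 to 71.8 CPM in CHL1 controls and 108 to 211 CPM in the 4 A375 controls, whereas the pigment enzymes TYR and TYRP1 lay at or below 5.02 CPM in these controls. The melanocyte enzyme DCT was at 70.4 and 96.1 CPM in CHL1 controls and at 0 in both A375 controls of 72 hours. The leukocyte marker PTPRC was at 7.41 and 7.77 CPM in CHL1 controls, 9.31 to 16.8 CPM in treated CHL1 libraries and at most 0.588 CPM in A375, and its part in the results was not tested. In bulk RNA, fewer cells of a type and less RNA per cell cannot be told apart.

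The activator E2F2 was called lower under CDK4/6i at both times in A375, and in CHL1 at 6 days against the 72-hour control. In A375 at 72 hours E2F1 was called lower as well. The activator E2F3 was called in none of the 6 uncorrected comparisons with control. The labels do not say that replicates came from separate cultures, so p-values measure the spread between these samples, which may be technical. A member was called at a Benjamini-Hochberg adjusted p below 0.05 in edgeR's quasi-likelihood test over all 20705 genes. In CHL1, 1 member (E2F7) fell at 72 hours of CDK4/6i, where 4.98% of all genes were called (2.27% higher, 2.72% lower), and 3 members (E2F2, E2F5 and E2F7) fell at 6 days, where 16.6% were called (8.83% higher, 7.8% lower). In A375, 2 members (E2F1 and E2F2) fell at 72 hours, where 13.3% of genes were called (6.22% higher, 7.11% lower). At 6 days 2 members (E2F2 and E2F5) fell and E2F4 rose, with 43.1% of genes called (21.8% higher, 21.3% lower).

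Under PRMT5i, E2F2 alone was called in A375 and fell, where 2.61% of genes were called (0.874% higher, 1.74% lower). In CHL1, 7 members were called under PRMT5i, with E2F1, E2F2 and E2F4 lower and E2F5, E2F6, E2F7 and TFDP2 higher, and 54% of all genes were called there (26.4% higher, 27.6% lower). The 3 members that fell are those with GC-rich transcripts. With the GC correction only TFDP1 (lower) and TFDP2 (higher) were called in this comparison, beside 36.6% of 12875 genes. The same correction gave 4 calls of 9 in CHL1 at 72 hours of CDK4/6i (17.3% of genes), 4 at 6 days (33.8%), 4 in A375 at 72 hours (29.6% of 13444 genes), 3 at 6 days (43.6%) and 3 under PRMT5i (10.7%). In A375 at 72 hours same-numbered libraries deviated together, and with the replicate number as a block 6 members were called for CDK4/6i (42.3% of genes) and 7 for PRMT5i (29.5%). The block fit left out the unnumbered A375 libraries of 6 days. The same numbered libraries without the block gave 5 and 6 members, so most of these added calls were also made without pairing. The share of all genes called rose with the block too, from 13.3% and 2.61%, so the added calls show nothing particular to the members.

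The promoters of the activators are shown because E2F genes can be targets of E2Fs themselves, and those of E2F4 and E2F7 as examples of repressors. The windows are RefSeq sequence of GRCh38.p14, from 250 bases before to 50 after an annotated start, written 5′ to 3′ on the gene's own strand, with exact E2F site forms in capitals. The forms searched on both strands were TTTCCCGC, TTTGGCGC, TTTGCCGC and TTTCGCGC. They lie at chr20:33686336-33686635 (E2F1, minus strand), chr1:23531184-23531483 (E2F2, minus), chr6:20401629-20401928 (E2F3, plus), chr16:67191905-67192204 (E2F4, plus) and chr12:77065520-77065819 (E2F7, minus).
E2F1: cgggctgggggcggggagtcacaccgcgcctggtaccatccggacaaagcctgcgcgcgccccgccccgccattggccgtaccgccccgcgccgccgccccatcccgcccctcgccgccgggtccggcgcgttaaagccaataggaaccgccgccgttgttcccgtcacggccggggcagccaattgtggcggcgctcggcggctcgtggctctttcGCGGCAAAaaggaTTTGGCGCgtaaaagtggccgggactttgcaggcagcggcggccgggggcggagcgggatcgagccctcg
E2F2: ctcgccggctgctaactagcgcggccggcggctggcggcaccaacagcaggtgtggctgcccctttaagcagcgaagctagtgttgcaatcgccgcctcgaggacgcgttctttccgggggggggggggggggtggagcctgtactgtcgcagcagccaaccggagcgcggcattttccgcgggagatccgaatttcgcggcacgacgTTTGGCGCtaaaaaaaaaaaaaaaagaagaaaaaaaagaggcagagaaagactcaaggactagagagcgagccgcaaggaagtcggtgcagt
E2F3: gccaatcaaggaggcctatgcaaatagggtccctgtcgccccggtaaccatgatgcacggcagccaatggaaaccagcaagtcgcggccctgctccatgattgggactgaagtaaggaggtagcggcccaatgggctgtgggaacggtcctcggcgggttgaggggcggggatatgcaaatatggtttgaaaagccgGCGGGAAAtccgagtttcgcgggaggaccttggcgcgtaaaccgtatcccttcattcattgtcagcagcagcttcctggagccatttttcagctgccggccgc
E2F4: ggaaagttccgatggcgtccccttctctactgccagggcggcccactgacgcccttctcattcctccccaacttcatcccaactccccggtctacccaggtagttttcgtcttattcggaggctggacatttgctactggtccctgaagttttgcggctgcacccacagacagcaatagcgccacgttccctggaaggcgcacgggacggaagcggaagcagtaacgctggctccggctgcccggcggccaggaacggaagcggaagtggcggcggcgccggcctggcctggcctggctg
E2F7: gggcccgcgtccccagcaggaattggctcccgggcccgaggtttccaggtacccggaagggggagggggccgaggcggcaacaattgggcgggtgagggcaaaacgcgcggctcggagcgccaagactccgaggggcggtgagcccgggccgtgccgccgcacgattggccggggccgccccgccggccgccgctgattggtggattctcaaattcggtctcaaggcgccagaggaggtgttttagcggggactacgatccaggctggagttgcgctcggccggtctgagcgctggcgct
The windows of E2F1 and E2F2 both hold TTTGGCGC, beginning at position -20 and -42 from the start site. E2F1 also holds GCGGCAAA, the reverse complement of TTTGCCGC, at position -33, and E2F3 holds GCGGGAAA, the reverse complement of TTTCCCGC, at position -53. Any of the 4 forms stands in 3.31% of 35116 promoter windows, and TTTGGCGC in 0.652%. Among the 8 members with a window used here, E2F1, E2F2, E2F3 and TFDP1 held a form, TFDP1 as GCGCGAAA, the reverse complement of TTTCGCGC, at -120. E2F3 and TFDP2 had more than 1 window, and the E2F3 window at chr6:20403364-20403663 held no form. The members are counted by gene, whereas the shares of all promoters are per window. The 5-base CCAAT box, in 34.6% of windows, occurred 4 times in the E2F7 window, 4 times in the shown window of E2F3 and 3 times in that of E2F1. A match, or the lack of one, is a description of the letters and not of binding.

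The 72-hour controls of the lines differed in which E2F was most abundant. Per length of exon sequence, as RPKM of the union of exons, E2F3 led in CHL1 control cells with 52.7 ± 2.57 (SD, n = 2), or 38.8% of the summed E2F RPKM, followed by E2F1 with 29.9 ± 1.53. In A375 control cells of 72 hours E2F4 led with 40.9 ± 4.59 RPKM, or 35.9%, ahead of E2F3 with 20.4 ± 1.24 and E2F1 with 20.2 ± 0.777, whose ranges overlapped. E2F5 was the lowest member in both, at 6.13 ± 0.774 and 3.20 ± 0.190 RPKM. The partner TFDP1 stood far above TFDP2, at 45.3 ± 4.57 against 7.78 ± 0.407 RPKM in CHL1 and 80.6 ± 7.87 against 4.29 ± 0.0316 in A375. In the A375 controls of 6 days E2F4 did not lead clearly by this measure. There E2F3 was at 22.5 ± 2.94 RPKM and E2F4 at 21.2 ± 6.87, and E2F2 was the lowest member at 2.53 ± 0.836. Per length of the longest transcript E2F4 stood at 29.1 and E2F3 at 23.2 RPKM. These levels are without GC correction, and GC-rich genes such as E2F4 and E2F2 stood low in these controls (-2.46 and -1.22). The log2 difference of E2F4 from the 72-hour control, -0.99 ± 0.23, was -0.26 ± 0.14 with the GC correction.

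**Figure D1:**
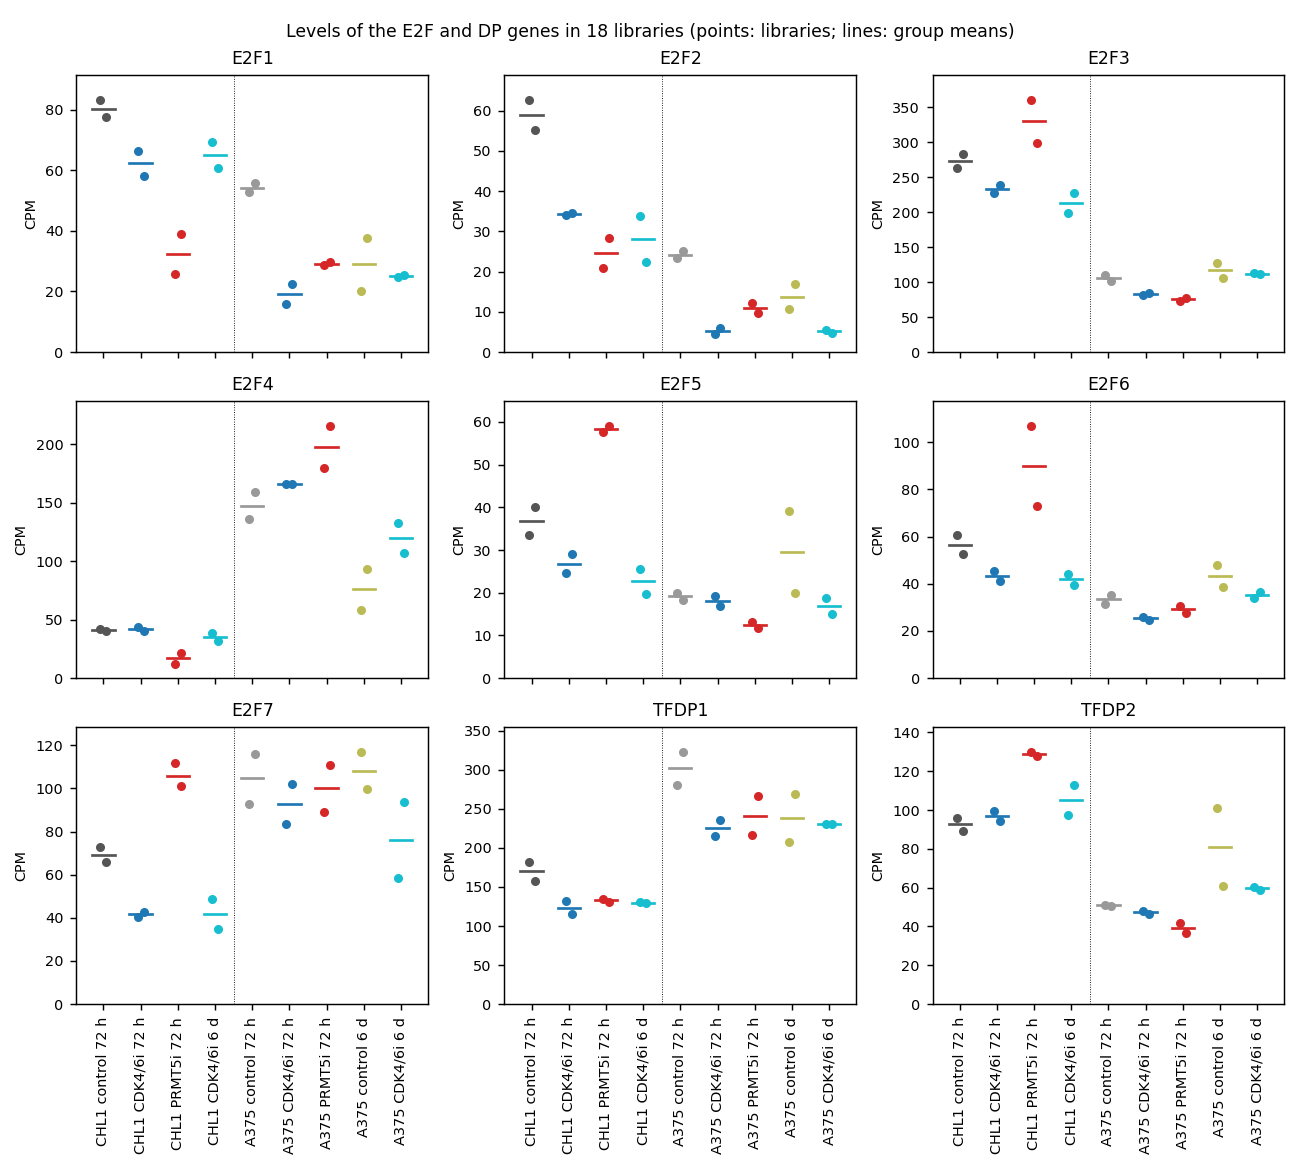
Levels of the 9 E2F and DP genes as CPM (vertical axes, from 0) in each of 18 libraries (points) with group means (lines), CHL1 groups left and A375 groups right of the dotted line. E2F2 lies at 55.2 and 62.7 CPM in the CHL1 controls and at or below 34.6 in every treated CHL1 library, and E2F4 is higher in each A375 library than in any CHL1 library.

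Between the control groups of 72 hours, 8 of 9 members were called, where 58.9% of all genes were, and 69.3% of 13675 genes with the GC correction, under which all 9 were called in the same directions. CHL1 held more E2F3 (log2 difference 1.37 ± 0.16, SE), E2F2 (1.28 ± 0.24), E2F5 (0.94 ± 0.25), TFDP2 (0.86 ± 0.19) and E2F6 (0.76 ± 0.19), with adjusted p between 5.44e-07 and 0.00303. A375 held more E2F4 (-1.85 ± 0.24, CHL1 minus A375), TFDP1 (-0.83 ± 0.17) and E2F7 (-0.59 ± 0.22, adjusted p = 0.0266). The E2F7 call was lost without either CHL1 control (-0.64 and -0.50) or without A375 control replicate 2 (-0.40). For E2F1 the difference was 0.57 ± 0.24 (adjusted p = 0.0516). By their names in the count table these groups belong to different sets of libraries, so line and set cannot be told apart.

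E2F1 (chr20:32263283-32274191 on GRCh37, minus strand) encodes the activator that also links the RB pathway to apoptosis. In CHL1 it was counted at 83.3 and 77.5 CPM in the controls, 66.4 and 58.1 after CDK4/6i for 72 hours, 69.3 and 60.8 after 6 days, and 25.9 and 39 under PRMT5i. Every treated library lay below both controls. The log2 change was -0.37 ± 0.20 at 72 hours (adjusted p = 0.33) and -0.29 ± 0.20 at 6 days (adjusted p = 0.354), and with the GC correction -0.53 ± 0.12 (adjusted p = 0.0145) and -0.48 ± 0.12 (adjusted p = 0.0112). Under PRMT5i it fell by 1.29 ± 0.20 on the log2 scale (adjusted p = 0.000307), which became -0.04 ± 0.12 with the GC correction (adjusted p = 0.82), in the libraries whose GC-rich genes stood lowest. The part of GC content in the uncorrected change was not tested further.

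In A375, E2F1 was at 52.8 and 55.8 CPM in the 72-hour controls and at 16 and 22.6 CPM after 72 hours of CDK4/6i, a fall of 1.55 ± 0.26 on the log2 scale (2.93-fold, adjusted p = 0.00109) that was called without any 1 of the 4 libraries (-1.83 to -1.32). Under PRMT5i it was at 28.6 and 29.8 CPM, below both controls, with a log2 change of -0.91 ± 0.26 (adjusted p = 0.0731), and the change was called with the replicate block (-0.91 ± 0.10) and with the GC correction (-0.99 ± 0.16, adjusted p = 0.00649). At 6 days E2F1 stood at 24.8 and 25.4 CPM, between the controls of 20.3 and 37.8. The change at 6 days was -0.22 ± 0.25 (adjusted p = 0.509), and -0.73 ± 0.16 with the GC correction (adjusted p = 0.00505). The 6-day control itself lay 0.94 ± 0.25 below the 72-hour control on the log2 scale (adjusted p = 0.00688, lost without 72-hour control replicate 2 at -0.83), and -0.18 ± 0.16 with the GC correction. Time and library set cannot be told apart between these controls.

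E2F2 (chr1:23832930-23857725, minus strand), an activator that drives S-phase genes together with E2F1, fell most widely. CHL1 controls held 62.7 and 55.2 CPM, against 34.0 and 34.6 after CDK4/6i for 72 hours, 33.8 and 22.3 after 6 days, and 20.8 and 28.3 under PRMT5i. No treated library reached a control. The change at 72 hours was -0.78 ± 0.22 (adjusted p = 0.0622), called with the GC correction at -0.86 ± 0.18 (adjusted p = 0.0134). At 6 days E2F2 fell by 1.05 ± 0.22 on the log2 scale (2.07-fold, adjusted p = 0.00848), or -1.12 ± 0.19 with the GC correction. That call was lost without control replicate 1 (-0.96), control replicate 2 (-1.14) or 6-day replicate 2 (-0.78), 1 at a time. PRMT5i gave -1.24 ± 0.22 (adjusted p = 0.000626), but -0.22 ± 0.18 with the GC correction (adjusted p = 0.39).

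A375 controls of 72 hours held E2F2 at 23.4 and 25.0 CPM, and CDK4/6i at 72 hours left 4.60 and 6.06 CPM (87 and 121 counts). This fall of 2.24 ± 0.27 on the log2 scale (4.72-fold, adjusted p = 8.16e-05) was the largest of any member in the 6 treatment comparisons and stayed called without any 1 library (-2.45 to -2.06). At 6 days E2F2 was at 5.55 and 4.76 CPM against 10.6 and 17 in the controls, a fall of 1.43 ± 0.26 (2.69-fold, adjusted p = 0.000592), called without any 1 of the 4 libraries (-1.76 to -1.01) and at -1.95 ± 0.19 with the GC correction. PRMT5i left 12.2 and 9.65 CPM, -1.16 ± 0.26 (adjusted p = 0.0278), with -1.22 ± 0.19 after GC correction (adjusted p = 0.00522). The uncorrected PRMT5i call was lost without any 1 of its 4 libraries, at -1.35 to -0.99. The controls themselves differed by -0.85 ± 0.25 (6 days against 72 hours, adjusted p = 0.0127), lost without 72-hour control replicate 2 (-0.73) or 6-day control replicate 1 (-0.52), and by -0.18 ± 0.18 with the GC correction.

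E2F3 (chr6:20402110-20493945, plus strand) was the activator with no call in the 6 uncorrected comparisons with control. In CHL1 it was at 264 and 283 CPM in the controls, 228 and 239 after CDK4/6i for 72 hours, 199 and 227 after 6 days, and 361 and 299 under PRMT5i. CDK4/6i libraries lay below and PRMT5i libraries above both controls, with changes of -0.23 ± 0.15, -0.35 ± 0.16 and 0.29 ± 0.15 that did not pass (adjusted p = 0.457, 0.149 and 0.133). A375 ranged from 73.4 to 110 CPM at 72 hours. There E2F3 changed by -0.40 ± 0.17 under CDK4/6i (adjusted p = 0.124) and -0.50 ± 0.17 under PRMT5i (adjusted p = 0.133), and both fell with the replicate block (-0.40 ± 0.09 and -0.50 ± 0.09) and with the GC correction (-0.39 ± 0.10 and -0.49 ± 0.10, adjusted p = 0.0146 and 0.0153). At 6 days of CDK4/6i it was -0.06 ± 0.17 (adjusted p = 0.811).

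E2F4 (chr16:67226058-67232821, plus strand), the most abundant repressor E2F of many cell types, was steady under CDK4/6i at 72 hours. CHL1 controls held 42.0 and 39.9 CPM, with 43.6 and 40.2 at 72 hours (0.03 ± 0.23, adjusted p = 0.995) and 38.3 and 31.5 at 6 days (-0.21 ± 0.23, adjusted p = 0.576). PRMT5i left 12.3 and 21.4 CPM, -1.26 ± 0.24 (2.39-fold lower, adjusted p = 0.000831) and called without any 1 library, yet -0.14 ± 0.14 with the GC correction (adjusted p = 0.44). In A375, 136 and 159 CPM in the 72-hour controls stood against 166 and 166 under CDK4/6i (0.12 ± 0.22, adjusted p = 0.792) and 180 and 216 under PRMT5i (0.41 ± 0.22, adjusted p = 0.392). With the replicate block the PRMT5i rise was called (0.41 ± 0.09). At 6 days E2F4 was at 133 and 107 CPM against 58.7 and 93.7 in the controls, 0.64 ± 0.22 (adjusted p = 0.0296). That rise was not called with the GC correction (0.11 ± 0.14) nor without 6-day control replicate 1 (0.32) or CDK4/6i replicate 1 (0.47), and against the 72-hour control it was -0.34. The 2 controls differed by -0.99 ± 0.23 (6 days against 72 hours, adjusted p = 0.0024), or -0.26 ± 0.14 with the GC correction.

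E2F5, the second pocket-protein repressor, has 16.5% of its exon sequence overlapped by the antisense gene RBIS, and as it is not given whether the library kit marked strand, their reads may not have been told apart. CHL1 held 33.5 and 40.0 CPM in the controls, 24.5 and 29.0 after CDK4/6i for 72 hours, 25.6 and 19.7 after 6 days, and 57.6 and 59.1 under PRMT5i. At 6 days it fell by 0.68 ± 0.19 on the log2 scale (adjusted p = 0.0289), and -0.71 ± 0.12 with the GC correction (adjusted p = 0.00258), with the first call lost without either control (-0.80 and -0.54) or 6-day replicate 2 (-0.49). The PRMT5i rise of 0.69 ± 0.18 (adjusted p = 0.00769, lost without control replicate 1 at 0.56) turned to -0.29 ± 0.12 with the GC correction (adjusted p = 0.087). In A375 at 6 days, 18.8 and 14.9 CPM stood against 39.2 and 20 in the controls. The change of -0.81 ± 0.25 (adjusted p = 0.0178) was not called without 6-day control replicate 1 (-0.29) or CDK4/6i replicate 2 (-0.65), nor with the GC correction (-0.03 ± 0.17). PRMT5i in A375 gave 13.2 and 11.8 CPM against 20 and 18.4, -0.63 ± 0.26 (adjusted p = 0.246), called with the replicate block at -0.63 ± 0.13.

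E2F6 (chr2:11584501-11606303, minus strand), the Polycomb-associated repressor, was at 60.7 and 52.6 CPM in CHL1 controls and 39.6 to 45.4 CPM in the 4 CDK4/6i libraries, with changes of -0.39 ± 0.19 and -0.42 ± 0.19 (adjusted p = 0.287 and 0.161). PRMT5i libraries held 107 and 73.1 CPM, 0.68 ± 0.19 (adjusted p = 0.00962), lost without control replicate 2 (0.59) or PRMT5i replicate 1 (0.39), and 0.38 ± 0.16 with the GC correction (adjusted p = 0.096). A375 at 72 hours of CDK4/6i held 25.8 and 24.7 CPM against 31.4 and 35.3, -0.46 ± 0.18 (adjusted p = 0.106), a fall called with the replicate block (-0.46 ± 0.10) and with the GC correction (-0.40 ± 0.12, adjusted p = 0.0269). PRMT5i in A375 gave -0.21 ± 0.18 (adjusted p = 0.631) and CDK4/6i at 6 days -0.30 ± 0.18 (adjusted p = 0.181).

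E2F7 (chr12:77415028-77459349, minus strand), the atypical repressor that damps E2F1 in a feedback loop, was lower under CDK4/6i in CHL1. Its level was 72.9 and 65.8 CPM in the controls, 40.5 and 42.6 at 72 hours, 48.7 and 34.7 at 6 days, and 112 and 101 under PRMT5i. All 4 CDK4/6i libraries were below and both PRMT5i libraries above the controls. Under CDK4/6i its log2 change was -0.74 ± 0.18 (adjusted p = 0.041) at 72 hours and -0.72 ± 0.18 (adjusted p = 0.0212) at 6 days, with -0.65 ± 0.14 and -0.62 ± 0.14 after GC correction, both called. The 72-hour call was lost without any 1 of 4 libraries (-0.81 to -0.67) and also with the replicate block. The 6-day call was lost without either control (-0.64 and -0.79) or 6-day replicate 2 (-0.48). The rise under PRMT5i of 0.64 ± 0.18 (adjusted p = 0.0109, lost without control replicate 2 at 0.56) was 0.17 ± 0.14 with the GC correction (adjusted p = 0.38).

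In A375, E2F7 was at 92.9 and 116 CPM in the 72-hour controls, 83.6 and 102 under CDK4/6i and 89.3 and 111 under PRMT5i, so the groups overlapped. The CDK4/6i change of -0.23 ± 0.22 (adjusted p = 0.55) was called with the replicate block (-0.23 ± 0.09) and not with the block and the GC correction together (-0.13 ± 0.08). At 6 days 58.3 and 93.9 CPM stood against 117 and 99.6, -0.51 ± 0.22 (adjusted p = 0.074).

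TFDP1 (chr13:114239036-114295788, plus strand), the main DP partner, had a lower mean in each treated group than in its control, with no call in the 6 uncorrected comparisons. CHL1 controls held 182 and 157 CPM, and the 6 treated libraries 115 to 134 CPM, all below both controls. The changes were -0.46 ± 0.15 and -0.37 ± 0.15 under CDK4/6i (adjusted p = 0.103 and 0.117) and -0.33 ± 0.15 under PRMT5i (adjusted p = 0.0804). It fell after GC correction at 72 hours of CDK4/6i (-0.40 ± 0.12, adjusted p = 0.0449) and under PRMT5i (-0.41 ± 0.12, adjusted p = 0.0243). A375 held 281 and 323 CPM in the 72-hour controls, 215 and 236 under CDK4/6i and 216 and 266 under PRMT5i, each below both controls. The changes were -0.48 ± 0.19 (adjusted p = 0.117) and -0.34 ± 0.19 (adjusted p = 0.428), both called with the replicate block at -0.48 ± 0.10 and -0.34 ± 0.10.

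TFDP2 (chr3:141663270-141868386, minus strand), the second DP partner, was called higher under PRMT5i in CHL1 alone among the 6 uncorrected comparisons with control. CHL1 held 96.0 and 89.1 CPM in the controls and 130 and 128 under PRMT5i, 0.49 ± 0.15 (adjusted p = 0.0134), and with the GC correction 0.47 ± 0.11 (adjusted p = 0.00889). Without control replicate 1 (0.55) or control replicate 2 (0.44) the uncorrected call was lost. CDK4/6i in CHL1 gave 0.06 ± 0.15 and 0.20 ± 0.15 (adjusted p = 0.889 and 0.403). In A375 its values under treatment were -0.16 ± 0.21 (72 hours of CDK4/6i, adjusted p = 0.652), -0.39 ± 0.21 (PRMT5i, adjusted p = 0.377, called with the block at -0.39 ± 0.09) and -0.44 ± 0.20 (6 days, adjusted p = 0.093, called with the GC correction at -0.50 ± 0.18). The A375 controls of 6 days lay 0.62 ± 0.20 above those of 72 hours (adjusted p = 0.0203), or 0.57 ± 0.18 with the GC correction, lost without either 72-hour control (0.63 and 0.69) or 6-day control replicate 1 (0.24). In that control comparison 4 members were called, E2F1, E2F2, E2F4 and TFDP2, where 47.8% of genes were, and with the GC correction TFDP1 and TFDP2, where 43.5% were.

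**Figure D2:**
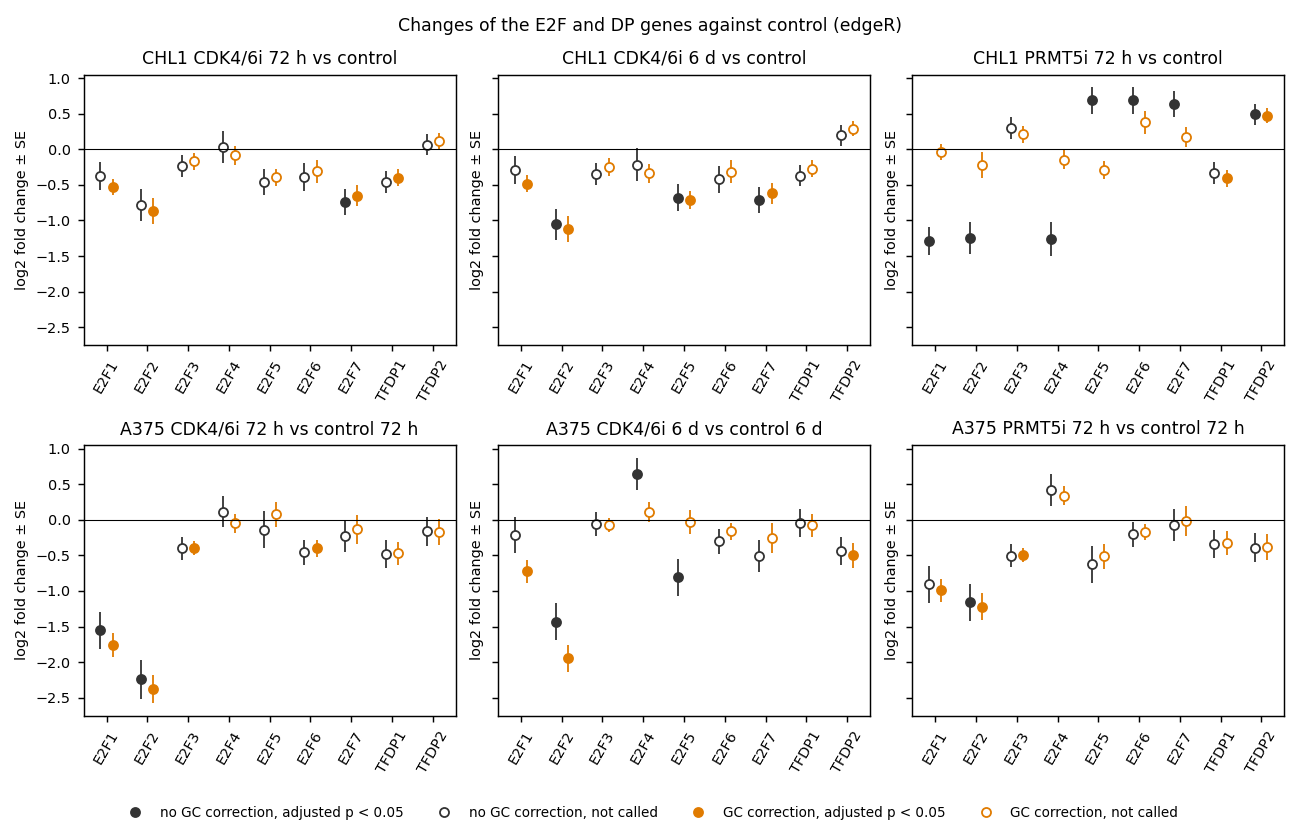
Log2 fold change ± SE against control (vertical axis) of the 9 genes in 6 comparisons, without (black) and with (orange) the GC correction, filled where adjusted p is below 0.05. E2F2 lies below 0 in every panel, and the falls of E2F1, E2F2 and E2F4 under PRMT5i in CHL1 move to between -0.22 and -0.04 with the correction.

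The drugs were also compared with each other at 72 hours within each line, and the difference between lines in that contrast was not tested. In A375, E2F2 was higher under PRMT5i than under CDK4/6i by 1.08 ± 0.27 on the log2 scale (adjusted p = 0.0321), the only member called, where 5.45% of genes were. That call was lost without any 1 of the 4 libraries (0.89 to 1.29). After GC correction E2F1 (0.77 ± 0.17), E2F2 (1.16 ± 0.20) and E2F5 (-0.59 ± 0.18) were called, beside 19% of genes, and with the replicate block E2F1, E2F2, E2F4 and E2F5, beside 34.6%. In CHL1, 7 members differed, where 57.8% of genes did. PRMT5i cells held less E2F1 (-0.92 ± 0.20) and E2F4 (-1.29 ± 0.24) and more E2F7 (1.38 ± 0.19), E2F5 (1.15 ± 0.19), E2F6 (1.07 ± 0.19), E2F3 (0.52 ± 0.16) and TFDP2 (0.43 ± 0.15). The calls of E2F3 and TFDP2 were lost without either CDK4/6i library (0.45 and 0.56 for E2F3, 0.43 and 0.39 for TFDP2), and that of E2F3 also without PRMT5i replicate 1 (0.38). With the GC correction 6 members were called, all higher under PRMT5i, beside 50.4% of genes. E2F1 then stood at 0.49 ± 0.12 and E2F2 at 0.65 ± 0.19, against -0.92 and -0.46 uncorrected.

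The time under CDK4/6i and the cell line were also tested directly. In CHL1 0 members differed between 6 days and 72 hours in edgeR, 0 at an unadjusted p below 0.05 and 0 in DESeq2, where 0.0145% of genes were called, and all changes lay between -0.27 and 0.13. The A375 response to CDK4/6i, 6 days minus 72 hours, was called for 0 members in edgeR (2 at an unadjusted p below 0.05, and E2F1 in DESeq2), where 1.08% of genes were. E2F1 had 1.33 ± 0.36 there (adjusted p = 0.0826). Without 6-day control replicate 2 the count was 6 of 9 members, and 7019 genes were called in place of 224. The CHL1 minus A375 response to CDK4/6i at 72 hours was called for 0 members in edgeR (2 at an unadjusted p below 0.05, E2F1 and E2F2 in DESeq2), where 0.642% of genes were. The differences of E2F1 (1.12 ± 0.34, adjusted p = 0.17) and E2F2 (1.40 ± 0.35, adjusted p = 0.0807) were called with the GC correction at 1.22 ± 0.21 and 1.5 ± 0.28, beside 3.77% of genes. At 6 days 0 members were called in edgeR (2 at an unadjusted p below 0.05, 0 in DESeq2), where 21.9% of genes were, and E2F2, E2F5 and TFDP2 with the GC correction, beside 25.5%. In that contrast the CHL1 response was taken against a 72-hour control and the A375 response against a 6-day control.

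The response to PRMT5i differed between the lines for 5 members, where 40.9% of genes were called. CHL1 minus A375, E2F4 stood at -1.71 ± 0.34, E2F5 at 1.28 ± 0.35, E2F6 at 0.86 ± 0.26, TFDP2 at 0.85 ± 0.27 and E2F3 at 0.76 ± 0.22. E2F3 and TFDP2 were called with the GC correction too (0.69 ± 0.15 and 0.84 ± 0.23), beside 26% of genes. E2F1 and E2F2 were called only with the correction, at 0.92 ± 0.21 and 0.97 ± 0.27, against -0.41 ± 0.34 and -0.12 ± 0.34 without it. E2F4 (-0.52 ± 0.20), E2F5 (0.24 ± 0.22) and E2F6 (0.54 ± 0.21) were not. The E2F6 call was lost without CHL1 control replicate 2 (0.72), CHL1 PRMT5i replicate 1 (0.59), A375 control replicate 2 (0.73) or A375 PRMT5i replicate 2 (0.78). Calls of E2F3 were lost without CHL1 control replicate 1 (0.67) or A375 PRMT5i replicate 1 (0.68), and of TFDP2 without CHL1 control replicate 2 or A375 PRMT5i replicate 2 (both 0.76).

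To set activators against repressors, the mean log2 CPM of E2F4 and E2F5 was subtracted from that of E2F1, E2F2 and E2F3 in each library, as a description without a test. CHL1 controls stood at 1.57 and 1.41, and A375 controls of 72 hours at -0.02 and -0.05. CDK4/6i in A375 gave -1.64 and -1.23 at 72 hours and -1 and -0.74 at 6 days, the latter against -0.67 and -0.08 in the 6-day controls. PRMT5i in A375 gave -0.73 and -0.85. The balance thus lay lower in each treated A375 group than in its own control, with mean shifts of -1.40, -0.49 and -0.75, or -1.53, -0.94 and -0.81 with the GC correction. In CHL1 the shifts were -0.25 at 72 hours and -0.12 at 6 days of CDK4/6i, and -0.45 under PRMT5i, which became 0.19 with the GC correction and -0.78 with E2F6 among the repressors. The CHL1 libraries of 6 days, at 1.31 and 1.44, overlapped the controls. With the GC correction they stood at 1.368 and 1.355, below the controls at 1.557 and 1.395.

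**Figure D3:**
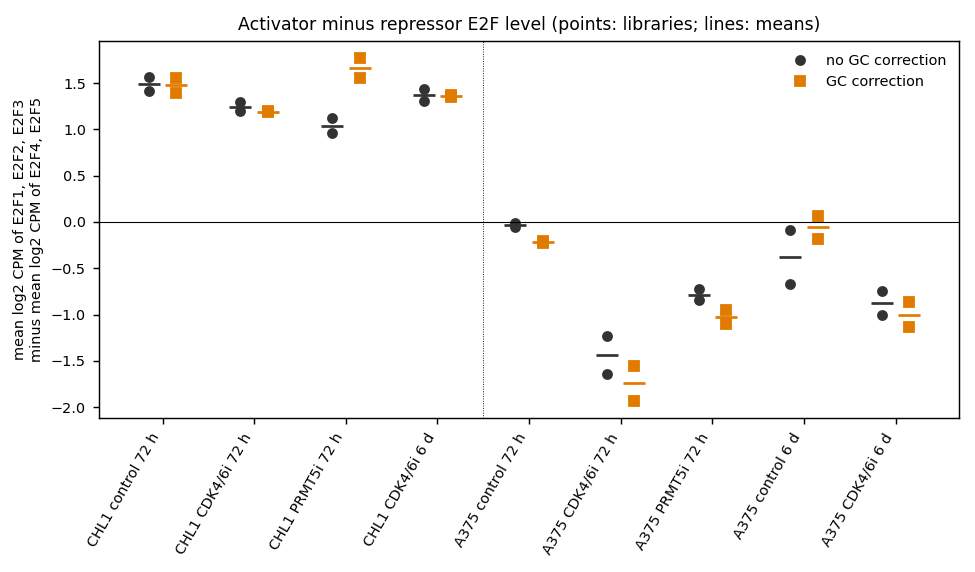
Mean log2 CPM of E2F1, E2F2 and E2F3 minus that of E2F4 and E2F5 (vertical axis) in each library (points, with group means as lines), without (black circles) and with (orange squares) the GC correction. CHL1 libraries lie between 0.96 and 1.77, A375 libraries between -1.93 and 0.07.

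Upstream of the E2Fs, 13 of 16 RB pathway regulators had a row. In CHL1 1 was higher and 2 lower after CDK4/6i for 72 hours (2.27% and 2.72% of all genes). The counts were 3 and 2 after 6 days (8.83% and 7.8%) and 4 and 5 under PRMT5i (26.4% and 27.6%). In A375 they were 2 higher and 2 lower at 72 hours (6.22% and 7.11%), 3 and 6 at 6 days (21.8% and 21.3%), and 2 and 1 under PRMT5i (0.874% and 1.74%). With the GC correction, over 12 genes, they were 2 and 3, 5 and 2, and 3 and 1 in CHL1. In A375 they were then 2 and 3, 2 and 6, and 1 and 2. CCND1, the cyclin that activates CDK4 and CDK6, rose under CDK4/6i in both lines, by 1.34 ± 0.15 and 1.31 ± 0.15 in CHL1 and 0.90 ± 0.19 and 0.94 ± 0.19 in A375 at 72 hours and 6 days (adjusted p at most 0.0063). RBL1, which encodes p107 and is itself an E2F target, fell under CDK4/6i by 0.82 ± 0.17 and 1.16 ± 0.18 in CHL1 and 1.60 ± 0.17 and 1.46 ± 0.17 in A375 (adjusted p at most 0.023), and under PRMT5i in A375 by 0.82 ± 0.16 (adjusted p = 0.0163). In CHL1 under PRMT5i, RBL1 was 0.58 ± 0.17 (adjusted p = 0.0137) and -0.24 ± 0.12 with the GC correction. RBL2, which encodes p130, passed in none of the 6 comparisons (-0.12 to 0.32). RB1 itself stood at 0.09 ± 0.18 and -0.49 ± 0.24 at 72 hours of CDK4/6i in CHL1 and A375 (adjusted p = 0.857 and 0.2), and fell at 6 days in A375 by 1.62 ± 0.24 (adjusted p = 0.000137), or by 0.72 ± 0.15 with the GC correction. Under PRMT5i in CHL1 it stood at 1.32 ± 0.19 (adjusted p = 0.000189), and at 0.23 ± 0.12 with the GC correction.

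The kinases that palbociclib targets passed in neither line at 72 hours of CDK4/6i. CDK4 was -0.04 ± 0.19 in CHL1 and -0.01 ± 0.22 in A375, and CDK6 -0.13 ± 0.19 and -0.17 ± 0.18. At 6 days CDK6 rose in CHL1 by 0.59 ± 0.19 (adjusted p = 0.0477) and fell in A375 by 0.90 ± 0.19 (adjusted p = 0.00137), and CDK4 rose in A375 by 0.67 ± 0.22 (adjusted p = 0.0223). After GC correction the CHL1 rise of CDK6 was called (0.62 ± 0.17), and the A375 values of CDK6 (-0.33 ± 0.15) and CDK4 (0.30 ± 0.16) were not. PRMT5, the target of GSK3326595, stood at 0.46 ± 0.25 in A375 under PRMT5i (adjusted p = 0.401) and at -0.96 ± 0.20 in CHL1 (adjusted p = 0.0016), or -0.42 ± 0.17 with the GC correction (adjusted p = 0.077). Its partner WDR77 was at 0.47 ± 0.20 and -0.36 ± 0.16 there (adjusted p = 0.241 and 0.075). CDK4 fell in CHL1 under PRMT5i by 1.47 ± 0.20 (adjusted p = 0.00017), and by 0.92 ± 0.15 with the GC correction.

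Downstream, 30 G1/S genes known as E2F targets had a row. CDK4/6i lowered 13 of them in CHL1 at 72 hours and 21 at 6 days, and 29 in A375 at 72 hours and 20 at 6 days, with median log2 changes of -0.72, -0.88, -1.34 and -0.82 against 0 to 0.096 over all genes. Of all genes, 2.72%, 7.8%, 7.11% and 21.3% were called lower in these comparisons. With the GC correction 20, 23, 29 and 26 of the 30 were lower. PRMT5i lowered 9 in A375 (median -0.67), where 1.74% of all genes were lower, and 19 with the GC correction. In CHL1, where 27.6% of all genes were lower and 26.4% higher, it lowered 15 and raised 6 (median -0.46), and with the GC correction lowered 6 and raised 1 (median -0.16). The largest falls were those of MYBL2 in A375 at 72 hours (2.05 ± 0.26), CCNA2, a cyclin of S phase and mitosis, in CHL1 at 72 hours (1.29 ± 0.19) and in A375 at 6 days (2.22 ± 0.195), and RRM2, the ribonucleotide reductase subunit, under PRMT5i in A375 (1.66 ± 0.21). The cyclin E genes CCNE1 and CCNE2 differed in direction from each other in A375 under CDK4/6i. CCNE2 fell there at 72 hours (-1.92 ± 0.25, adjusted p = 0.000133) and at 6 days (-2.11 ± 0.24). It also fell under PRMT5i in A375 (-0.99 ± 0.24) and at 6 days of CDK4/6i in CHL1 (-0.73 ± 0.21). In CHL1 at 72 hours it was at -0.61 ± 0.21 (adjusted p = 0.122). CCNE1 had the highest value of the list in A375 at 72 hours of CDK4/6i, 0.63 ± 0.24 (adjusted p = 0.0877). At 6 days there it rose by 0.91 ± 0.23 (adjusted p = 0.00509), or by 0.54 ± 0.18 with the GC correction. Under PRMT5i in CHL1 CCNE2 stood at 1.06 ± 0.21 and CCNE1 at -0.67 ± 0.21 (adjusted p = 0.00115 and 0.0152), and at -0.04 ± 0.15 and -0.13 ± 0.21 with the GC correction, where neither passed.

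Of 13 G2/M genes bound by the MuvB complex, CDK4/6i lowered 7 and 10 in CHL1 and 13 and 12 in A375 at 72 hours and 6 days, or 11, 12, 13 and 11 with the GC correction, against the same shares of all genes lower as for the G1/S genes. KIF20A, a mitotic kinesin, fell most in CHL1, by 1.30 ± 0.17 and 1.29 ± 0.17, and CDK1, the mitotic kinase, in A375, by 1.78 ± 0.22 and 2.60 ± 0.23. PRMT5i lowered 3 in A375, where 1.74% of all genes were lower, or 7 with the GC correction, where 10.7% were called. In CHL1 it lowered 6 and raised 3, where 27.6% of all genes were lower and 26.4% higher. With the GC correction it lowered 2 and raised 1 in CHL1, where 36.6% were called. Under PRMT5i in CHL1 CDK1 was at 1.57 ± 0.21 and CDC20 at -1.31 ± 0.18, or 0.48 ± 0.14 and -0.24 ± 0.12 with the GC correction. The MuvB subunits LIN9, LIN52, LIN54 and RBBP4, which join E2F4 and p130 in the DREAM repressor, all fell in A375 at 72 hours of CDK4/6i, from -1.17 ± 0.20 (LIN52) to -0.57 ± 0.17 (RBBP4). Under CDK4/6i LIN52 alone fell in CHL1, by 0.61 ± 0.15 at 72 hours and 0.87 ± 0.16 at 6 days.

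PRMT5i in CHL1 raised 3 of these 4 MuvB genes, led by LIN9 at 1.38 ± 0.18, where 26.4% of all genes were higher, and with the GC correction raised 2 and lowered 1, where 36.6% of genes were called.

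Of 8 genes for E2F6 complex partners, 1 fell in A375 at 72 hours of CDK4/6i, where 7.11% of all genes were lower. It was the Polycomb subunit PCGF6, by 0.88 ± 0.19. PCGF6 was also lowest of the list in CHL1, at -0.49 ± 0.18 at 72 hours and -0.52 ± 0.18 at 6 days (adjusted p = 0.141 and 0.0665). At 6 days in A375, where 43.1% of all genes were called, 1 of the 8 rose and 4 fell. With the GC correction 1 rose and 3 fell there, beside 43.6% of genes called. PRMT5i in CHL1, where 54% were called, raised 5 and lowered 2, or raised 1 and lowered none with the GC correction. The genes SKP2, CCNF, FZR1 and CDC20 act in the degradation of cell cycle proteins, E2F1 among them for some. CCNF, which encodes cyclin F, fell under CDK4/6i by 0.87 ± 0.20 in CHL1 and 1.44 ± 0.24 in A375 at 72 hours, and by 0.94 ± 0.24 under PRMT5i in A375. PRMT1, which also methylates E2F1, fell under PRMT5i in CHL1 by 1.71 ± 0.24 (adjusted p = 0.000194), or by 0.76 ± 0.17 with the GC correction.

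**Figure D4:**
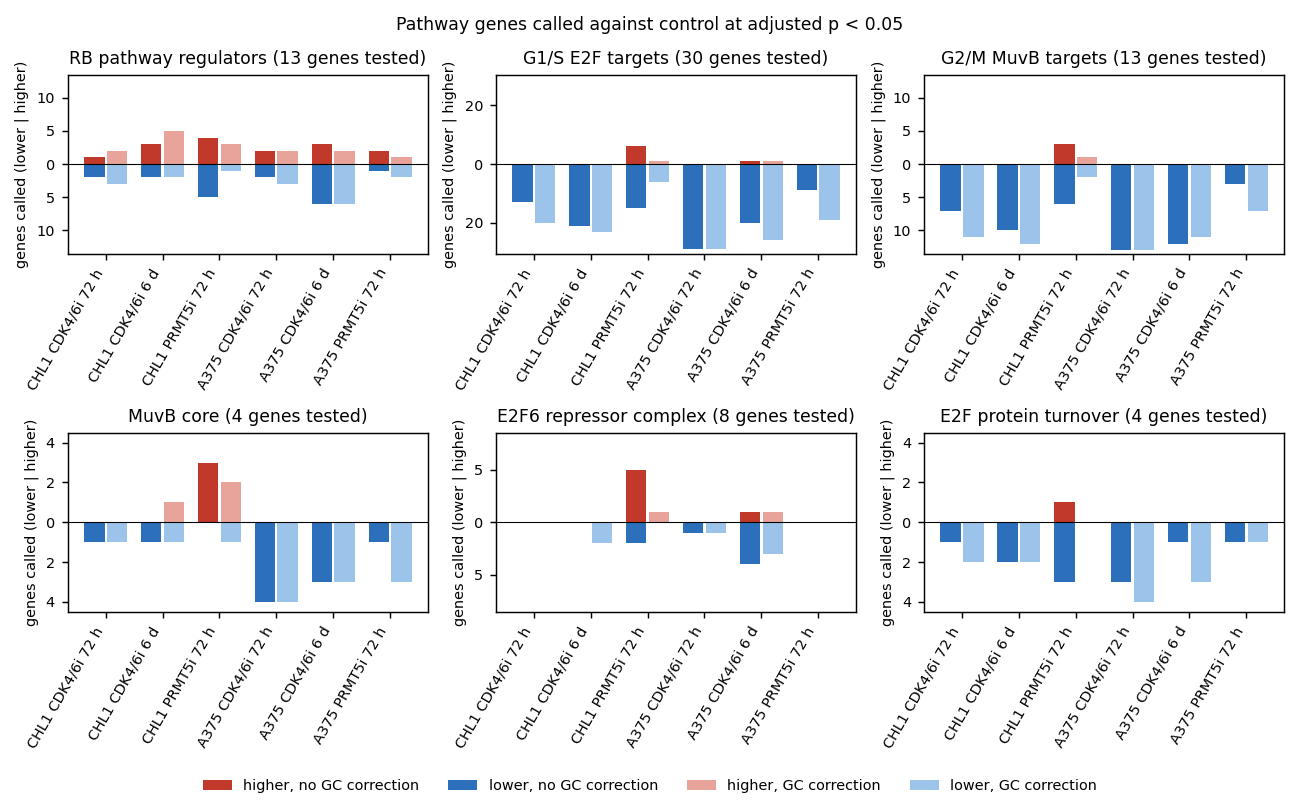
Number of genes of 6 pathway lists called higher (up) or lower (down) against control (vertical axis) in 6 comparisons, without (dark) and with (light) the GC correction, under which 12 in place of 13 RB pathway regulators were tested. All 13 G2/M genes and 29 of 30 G1/S genes are lower in A375 at 72 hours of CDK4/6i in both settings.

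Among 15649 genes whose mean reached 1 CPM, E2F1 was most alike in pattern to WDR62 (Pearson r = 0.957), C21orf58 (0.936) and APOBEC3B (0.935), over 18 libraries with the mean of each line removed. E2F2 was nearest to UHRF1 (0.974), TROAP (0.963) and MYBL2 (0.962), of which UHRF1 and MYBL2 stand in the list of G1/S genes. Among the genes nearest to E2F7 were ATP1B1 (0.912) and TTC27 (0.907). The genes nearest to E2F1 and E2F2 hold 51.7% to 60.5% GC and the 2 named for E2F7 38.5% and 45% GC, on the same side of the range as the member itself. Between members, E2F1 went with E2F2 (r = 0.824) and E2F3 with E2F6 (0.835), while E2F4 ran against TFDP2 (-0.886), E2F6 (-0.839) and E2F3 (-0.807). These values share libraries, depth and the GC trend, and are given as descriptions.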

How the data were processed

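RNA of 18 libraries was poly-A selected, prepared with TruSeq chemistry and sequenced as paired ends on a NextSeq500. The authors made counts per gene symbol with HISAT2 and HTSeq. The deposited table is called normalised, yet all its values are whole numbers and library totals differ, so they were taken as raw counts, which the sources do not state. The submitters' processing notes name FastQC 0.11.6, HISAT2 2.0.4, HTSeq 0.11.2, Picard 2.17.3 and SAMtools 1.18, and the build was GRCh37. Per the study's methods HTSeq ran with its defaults, which count by strand, and whether the library kit marked strand is not given in the sources used here.

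The E2F and DP genes, the pathway lists and the tests were chosen with earlier results of these data known. Groups came from the sample labels. Counts were fitted in R 4.3.3 with edgeR 4.0.16 (TMM, quasi-likelihood test), each line by itself (8 CHL1 and 10 A375 libraries), and all 18 libraries together for differences between lines. Benjamini-Hochberg adjustment ran over all 20705 genes, and SEs are the log2 change over the root of F. All tests were two-sided. The genes described are all E2F and DP members with a row, a fixed set of RB pathway genes, the highest and lowest gene of each list, and the 3 genes most alike to E2F1, E2F2 and E2F7, of which 1 is not reported here. No member stood on fewer than 87 counts.

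For the GC correction, a loess curve (span 0.4) of log2 level on transcript GC content entered the fit as an offset, over genes whose mean reached 1 CPM. GC content came from GENCODE transcripts of GRCh37, matched by symbol for 15208 genes and by an older symbol for 1148. Same-numbered A375 libraries of 72 hours deviated together (correlations of deviations 0.218, 0.481 and 0.251), whereas not every CHL1 pair did (-0.336 to 0.444, the highest between control and CDK4/6i of 72 hours), so a replicate block was used beside the A375 results. The labels do not say what a number stands for. The A375 libraries of 6 days carry none and were left out of the block fits. Alternatives were DESeq2 1.42.0, other scalings, a filter of 1 CPM in 2 libraries, other sets of libraries, and each library left out in turn. The script was tested on simulated counts. Reads of E2F3, E2F4, E2F6 and TFDP1 may be shared with pseudogenes.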

Additional observations from a re-analysis of the deposited data

Results flagged for a closer look

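The responses of CHL1 and A375 to PRMT5i differed by the test of the difference itself, in edgeR's fit of all 18 libraries, for 5 members. CHL1 minus A375, the log2 differences were 0.76 for E2F3, -1.71 for E2F4, 1.28 for E2F5, 0.86 for E2F6 and 0.85 for TFDP2. In that comparison 40.9% of all genes passed, and the CHL1 PRMT5i libraries were those with the lowest level of GC-rich against GC-poor genes (-2.79 and -2.15). With the GC correction the differences of E2F3 (0.69) and TFDP2 (0.84) passed, and those of E2F4 (-0.52), E2F5 (0.24) and E2F6 (0.54) did not. The line and the library set of the 72-hour samples cannot be told apart.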

How the results depend on the processing

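Numbers below are members called of 9 unless a log2 value is named, and for each change the cause was not tested. The share of all genes called also moved between settings, so a changed count alone shows nothing particular to the members. With the GC correction the counts went from 1 to 4 in CHL1 at 72 hours of CDK4/6i, 7 to 2 in CHL1 under PRMT5i, 2 to 4 in A375 at 72 hours, 1 to 3 in A375 under PRMT5i, 4 to 2 between the A375 controls, 1 to 3 between the drugs in A375, and 0 to 2 and 0 to 3 for the line difference at 72 hours and 6 days of CDK4/6i. Restricted to genes with a GC value but not corrected, the counts were 8 in CHL1 under PRMT5i, 6 between the A375 controls and 1 for the line difference at 6 days. Fits of the compared groups alone gave 6 (CHL1, 72 hours), 5 (A375, 72 hours), 4 (A375, PRMT5i), 3 (A375, drug against drug) and 3 (line difference, 72 hours), while the genes called of all 20705 went from 1032 to 4202, 2761 to 6940, 541 to 1861, 1129 to 4517 and 133 to 1797. With all 18 libraries in 1 fit CHL1 at 72 hours had 0. DESeq2 gave 2 (CHL1, 72 hours), 2 (A375, PRMT5i), 1 (A375, 6 days minus 72 hours) and 2 (line difference, 72 hours).

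With the replicate block the counts were 0 in CHL1 at 72 hours, where the call of E2F7 was lost, and 6 and 7 in A375 for CDK4/6i and PRMT5i (42.3% and 29.5% of all genes). They were 4 between the drugs in A375 (34.6% of all genes) and 2 for the line difference at 72 hours. The block with the GC correction gave 4, 5, 7, 5 and 2 in the same order, and 3 for PRMT5i in CHL1. The numbered A375 libraries without pairing, an alternative chosen after seeing the data, gave 5, 6, 3 and 2.

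Directions turned for E2F5 under PRMT5i in CHL1 (-0.29 with the GC correction, -0.29 with the block too), for E2F4 in A375 at 6 days against the 72-hour control (-0.34, and -0.15 with the GC correction as well, the latter chosen after seeing the data), and for E2F5 in the line difference at 6 days (-0.67 with the GC correction). With the GC correction, alone and with the block, E2F1 (0.49, 0.49) and E2F2 (0.65, 0.64) turned between the drugs in CHL1, as did E2F1 (0.92, 0.92) and E2F2 (0.97, 0.97) in the line difference for PRMT5i. Sign changes of values that passed in neither setting were not counted. The activator minus repressor change under PRMT5i in CHL1 was -0.78 with E2F6 among the repressors and 0.19 with the GC correction, and in A375 at 6 days -0.94 with the GC correction.

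Leaving out 1 library at a time, where the lone library left in a group is assumed to vary like the others, gave 0 to 0 members in CHL1 at 72 hours, 0 to 3 at 6 days and 4 to 8 under PRMT5i, and in A375 2 to 2 at 72 hours, 2 to 6 at 6 days and 0 to 0 under PRMT5i. The range was 0 to 6 for 6 days minus 72 hours in A375, 1 to 7 between its controls, 5 to 8 and 0 to 0 between the drugs in CHL1 and A375, 7 to 8 between the control lines, and 0 to 0, 0 to 2 and 3 to 5 for the line differences at 72 hours, 6 days and under PRMT5i. Over single members and settings, 1640 values kept direction and side of the threshold, 127 came to pass, 83 no longer passed and 13 turned.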
